A study of Mus musculus with 12 samples.

Results

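The genes described here encode molecular chaperones and regulators of endoplasmic reticulum (ER) stress. They were chosen by name, with earlier results of these data known, so their share of calls against all genes is no blind test. In all 40 gene symbols were listed, and a gene was measured where the array's probe annotation gave a row that symbol and no other. This left 36 measured genes of the 22180 genes on the array. By compartment they were 10 of 12 cytosolic heat shock chaperones, 15 of 16 ER chaperones and folding enzymes, 5 of 5 mitochondrial chaperones and 6 of 7 stress regulators. Hsp90ab1 and Hsf1 had no row with a single symbol, and Dnaja1 and Pdia4 were annotated together with other genes, so these 4 were not analysed here.

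RNA was measured on 12 arrays of CD8+ T cells that were enriched from spleens of C57BL/6 mice by negative selection and then kept in culture for 6 h. The 4 groups of 3 arrays were cells stimulated through CD3, a part of the T cell receptor complex, by an antibody, together with the type I interferon IFN-4a; cells given anti-CD3 alone; cells given IFN-4a with phosphate-buffered saline (PBS) as mock stimulation; and cells given PBS alone. No group carried a genetic change, and the sources used here give neither the interferon dose, the antibody dose nor the age of the mice. The labels number the replicates without naming animals, cultures or days, so a p-value here reflects the scatter among arrays, which could be technical repeats.

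Chaperones bind unfolded proteins and help them reach or regain their folded state; heat shock factors raise the cytosolic ones when misfolded proteins build up in the cytosol. In the ER, 3 sensors (the products of Ern1, Atf6 and Eif2ak3) detect misfolded secretory proteins and raise folding enzymes through the transcription factors encoded by Xbp1, Atf6 and Atf4, a programme called the unfolded protein response. T cells that receive a signal through their receptor grow, and their rate of protein synthesis rises before they divide.

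All expression values are on a log scale taken as log2. The authors centred each row on its median over the 12 arrays, so 0 is a row's own median, values of different genes cannot be ranked, and a difference of 1 between groups is a 2-fold difference. Fold changes come with the standard error (SE), and a gene is called higher or lower where the adjusted p of limma's moderated test, with Benjamini-Hochberg adjustment over all 22180 genes, is under 0.05. Array medians lay between -0.0157 and 0.0165; arrays of the same group correlated at 0.608 or more, and arrays of different groups at 0.527 or less. The treatments could be read in their own target genes: Ifit1, an antiviral gene induced by interferon, was higher with IFN-4a by 5.16 in PBS cells and by 3.88 in anti-CD3 cells, and Il2ra, the interleukin-2 receptor gene induced by T cell activation, was higher by 3.93 with anti-CD3 alone. Il2ra did not read anti-CD3 only: all 4 genes used to check the treatments (Ifit1, Isg15, Cd69 and Il2ra) were called higher with IFN-4a in PBS cells. The Il2ra change there ran from 0.13 to 1.19 over the alternative fits, with adjusted p of limma's test up to 0.574. The 7 measured T cell markers (among them Cd8a, Cd3e and Thy1) all had a row that stood at 8 or above on at least 6 arrays before centring. The decimal steps of the deposited values still show this. Of the 20 measured markers of B cells, myeloid cells, CD4 cells, NK cells and granulocytes 0 had such a row.

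Sequence elements that are known to bind the regulators of these genes were looked up in their promoters, because many of the genes moved together. RefSeq promoter windows (GRCm38.p6; 250 bases before to 50 bases after an annotated start site) were at hand for 30 of the 36 measured genes, as 33 windows. The ER stress element, the motif bound by ATF6 together with NF-Y and searched on both strands as CCAAT and CCACG with any 9 bases between them, was in 7 of the 33 windows and in 39 of all 32851 windows (0.119%). All 7 belonged to ER chaperone genes, 7 of the 13 with a window. Hsp90b1 held 2 matches. In the orientation of the motif, with its fixed letters in capitals, the matches were as follows.
Calr, chr8:84847075-84847093, plus strand: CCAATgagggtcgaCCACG
Canx, chr11:50325800-50325818, minus strand: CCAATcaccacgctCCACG
Creld2, chr15:88819520-88819538, minus strand: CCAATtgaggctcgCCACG
Dnajc3, chr14:118937827-118937845, plus strand: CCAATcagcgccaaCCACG
Hsp90b1, chr10:86705638-86705656, minus strand: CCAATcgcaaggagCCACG
Hsp90b1, chr10:86705533-86705551, plus strand: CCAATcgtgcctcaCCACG
Hspa5, chr2:34772025-34772043, plus strand: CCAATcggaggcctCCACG
Pdia6, chr12:17266491-17266509, plus strand: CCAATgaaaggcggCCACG

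The stretch upstream of the start site is printed for Hspa5, the ER chaperone with the largest change, and for Hsp90b1, with the matches in capitals and the gene's own strand written 5′ to 3′. In Hspa5 the match began 65 bases before the start site. In Hsp90b1 the matches began 212 and 107 bases before it and lay on opposite strands. The motif did not match in the windows of Sdf2l1, Dnajb11, P4hb, Pdia3, Dnajb9 or Herpud1 where one was at hand, which says only that these letters were not in the window.
Hspa5, chr2:34771840-34772089, plus strand: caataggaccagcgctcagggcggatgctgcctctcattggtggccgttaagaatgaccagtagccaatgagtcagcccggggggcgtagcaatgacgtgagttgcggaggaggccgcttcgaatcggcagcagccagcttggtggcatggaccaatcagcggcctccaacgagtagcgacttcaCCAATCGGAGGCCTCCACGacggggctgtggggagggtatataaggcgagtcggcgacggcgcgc
Hsp90b1, chr10:86705445-86705694, minus strand: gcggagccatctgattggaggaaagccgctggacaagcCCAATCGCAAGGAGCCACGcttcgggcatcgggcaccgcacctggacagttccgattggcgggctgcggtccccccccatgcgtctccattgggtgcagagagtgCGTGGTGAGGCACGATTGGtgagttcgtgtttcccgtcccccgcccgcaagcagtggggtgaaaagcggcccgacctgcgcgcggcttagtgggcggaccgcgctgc

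The heat shock element, bound by heat shock factors and searched on both strands as GAA, TTC and GAA with any 2 bases between neighbours, was in 4 of the 33 windows (genes Hspd1, Hspe1 and Hsph1) and in 198 of all 32851 (0.603%). Hspd1 and Hspe1 are neighbours on chromosome 1 that are transcribed away from each other. The same genomic site served both windows, so it is printed once per strand. Hsph1 had overlapping windows that held the same match, just after an annotated start site. The windows are thus not separate counts of the motif. Capitals mark the matches, which overlap each other in the site of Hspd1 and Hspe1.
Hspd1, chr1:55088053-55088082, minus strand: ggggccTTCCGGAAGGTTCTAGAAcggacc
Hspe1, chr1:55088053-55088082, plus strand: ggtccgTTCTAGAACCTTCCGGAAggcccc
Hsph1, chr5:149636282-149636306, minus strand: tgcagaTTCTGGAAAGTTCtcctca

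Further motifs were searched in the same windows. The interferon response element (GAAA and GAAA with any 2 bases between them, both strands) was in 0 of the 33 windows, against 3.44% of all windows. The amino acid response core (TGATGNAA) was in 3, those of Herpud1, Hspa14 and Trib3, against 3.97%. The E-box CACGTG was in 5, those of Calr, Dnajb9, Hspd1 and, in overlapping windows, Hsph1, against 7.15%.

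The first comparison set anti-CD3 alone against PBS and asked how the folding machinery changes when the T cell receptor complex is engaged. Chaperones of the mitochondrion and the ER were higher as groups, and cytosolic ones were mixed. Of the stress regulators some rose and the others were not called. Of the 36 measured genes, 26 rose and 3 fell, against a background of 13.8% of all genes called higher and 18% called lower (31.8% either way). At least 2-fold increases were seen in 9. The median change of the 36 was 0.56, against -0.04 over all genes tested. Genes of high signal were called more often: among the 6673 genes whose row stood at 8 or above before centring, which hold 28 of the 36, 35.6% were higher and 37.8% lower when these genes were fitted alone, and 25 of the 28 were higher and 2 lower. That filter asked for 8 or above on at least 6 arrays. A gene raised by anti-CD3 can pass it through the arrays with anti-CD3, and a lowered gene through those with PBS. The filter is thus not independent of the change, so these shares are no clean control for signal. In whole-population RNA, more RNA per cell and more cells of a kind cannot be told apart.

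**Figure D1:**
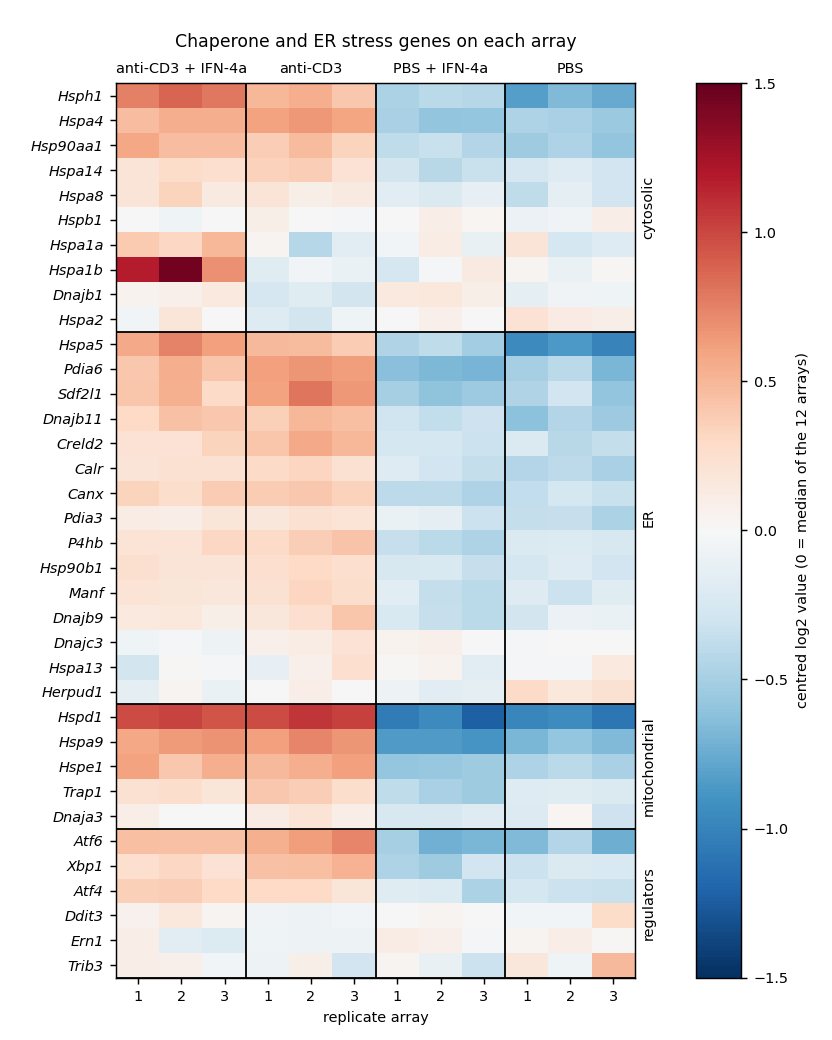
Heat map of the centred log2 values (colour scale) of the 36 measured genes (rows, by compartment) on the 12 arrays (columns, by group). Most rows of the ER and mitochondrial blocks are high on all 6 anti-CD3 arrays and low on all 6 PBS arrays, while Hspa1b is high on the 3 arrays with anti-CD3 and IFN-4a.

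All 5 mitochondrial chaperones rose with anti-CD3, with a median change of 1.0. Hspd1, which encodes the mitochondrial chaperonin Hsp60, stood at 0.97, 1.07 and 1.03 on the anti-CD3 arrays and at -0.98, -0.95 and -1.08 on the PBS arrays. The groups lay far apart, and the difference of 2.03 (4.09-fold, SE 0.07, adjusted p = 5.1e-11) was the largest of the 36. Hspe1, the co-chaperonin that caps the Hsp60 ring, stood at 0.49, 0.55 and 0.61 on the anti-CD3 arrays and at -0.47, -0.40 and -0.49 on the PBS arrays, a change of 1.0 (SE 0.06, adjusted p = 1.73e-08). Hspa9, the Hsp70 of the mitochondrial matrix that draws imported proteins through the inner membrane, read 0.62, 0.73 and 0.66 with anti-CD3 and -0.69, -0.58 and -0.67 with PBS, a change of 1.32 (SE 0.05, adjusted p = 3.7e-10). For each of these 3 genes every anti-CD3 array was above every PBS array.

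Trap1, the mitochondrial Hsp90, was higher by 0.54 (SE 0.06, adjusted p = 4.77e-06). Dnaja3, a J-domain partner of the mitochondrial Hsp70, was higher by 0.30 (SE 0.08, adjusted p = 0.00575) as the mean of 3 rows that disagreed: they gave 0.19, 0.17 and 0.55. With the row of highest mean centred value alone the change of Dnaja3 was 0.17 (adjusted p = 0.113). That choice does not rank rows by level, so it shows only that the call rests on how the rows are joined.

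In the ER, 13 of 15 measured genes rose with anti-CD3, 1 fell and 1 was not called, with a median change of 0.60. Hspa5, which encodes BiP, the Hsp70 of the ER that also holds the stress sensors inactive, stood at 0.48, 0.48 and 0.38 on the anti-CD3 arrays and at -0.95, -0.86 and -1.0 on the PBS arrays. Its change of 1.39 (2.61-fold, SE 0.06, adjusted p = 1.15e-09) was the largest in the compartment. Pdia6, a disulfide isomerase, read 0.62, 0.66 and 0.62 with anti-CD3 and -0.50, -0.41 and -0.68 with PBS, a change of 1.16 (SE 0.07, adjusted p = 1.32e-08). No array of one group reached the other group's range in either gene.

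Sdf2l1, a stress-inducible partner of ER J-domain proteins, was at 0.61, 0.80 and 0.65 on the anti-CD3 arrays and at -0.45, -0.28 and -0.59 on the PBS arrays, a change of 1.13 (SE 0.09, adjusted p = 1.54e-07). Dnajb11, a J-domain cofactor of BiP, was higher by 0.96 (SE 0.06, adjusted p = 3.13e-08). Of the lectin chaperones that hold newly made glycoproteins, Calr rose by 0.72 and Canx by 0.70. Creld2, a small ER protein induced by stress, rose by 0.82, the oxidoreductases Pdia3 and P4hb by 0.60 and 0.58, the ER Hsp90 gene Hsp90b1 by 0.52, Manf, which encodes an ER-resident protein secreted under stress, by 0.50, and the BiP cofactor Dnajb9 by 0.43. Of the 7 genes with an ER stress element in the window, printed above, all rose, but Dnajc3 only by 0.15 (SE 0.05, adjusted p = 0.0448). Of the 6 ER genes with a window and no match, 5 rose as well.

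Herpud1, which helps to clear misfolded ER proteins by degradation, went the other way. It read 0.01, 0.09 and -0.01 on the anti-CD3 arrays and 0.29, 0.16 and 0.23 on the PBS arrays, a change of -0.20 (SE 0.06, adjusted p = 0.0235). Hspa13, an Hsp70-like protein of microsomes, gave 0.03 (95% interval -0.19 to 0.25) and was not called. It was not among the genes of high signal. The adjusted p-values of Dnajc3 and Herpud1 did not stay under 0.05 throughout: leaving out anti-CD3 replicate 3 raised that of Dnajc3 to 0.171, and quantile normalization that of Herpud1 to 0.137.

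Among 10 cytosolic chaperones 5 rose, 2 fell and 3 were not called, and the median change was 0.22. Hsph1, an Hsp110 that exchanges the nucleotide on Hsp70, read 0.50, 0.55 and 0.41 on the anti-CD3 arrays and -0.83, -0.66 and -0.76 on the PBS arrays, a change of 1.23 (2.35-fold, SE 0.06, adjusted p = 1.95e-09). Hspa4, of the same family, was higher by 1.12 (SE 0.05, adjusted p = 1.65e-09), and Hsp90aa1, the inducible cytosolic Hsp90, by 0.92 (SE 0.06, adjusted p = 3.95e-08). Hspa14, a ribosome-associated Hsp70, rose by 0.56. Hspa8, the constitutive Hsp70, rose by 0.40 as the mean of 4 rows, which gave 0.51, 0.38, 0.36 and 0.36.

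The inducible Hsp70 genes did not follow with anti-CD3 alone. Hspa1b stood at -0.19, -0.04 and -0.10 on the anti-CD3 arrays and at 0.04, -0.10 and 0.02 on the PBS arrays, and Hspa1a at 0.05, -0.43 and -0.16 against 0.19, -0.26 and -0.19. The groups overlapped in both genes, with differences of -0.10 (95% interval -0.42 to 0.22) for Hspa1b and -0.09 (-0.37 to 0.18) for Hspa1a. Hspa2, an Hsp70 known chiefly from the testis, fell by 0.32 (SE 0.07, adjusted p = 0.00331). Dnajb1, the J-domain partner of the inducible Hsp70, fell by 0.15 (SE 0.05, adjusted p = 0.0412), a call that was lost under several alternatives (adjusted p = 0.122 when anti-CD3 replicate 3 was left out). Hspb1, a small heat shock protein, was not called (0.03, 95% interval -0.10 to 0.17). Of the cytosolic genes, Hspa1a, Hspa1b, Hspa2 and Hspb1 were not among those of high signal. Over all compartments 1 gene was called lower, in place of 3, without the first or the third anti-CD3 array or without the third PBS array.

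Of the 6 regulators 3 rose. Atf6, which encodes the ER membrane protein whose cleaved part is a transcription factor, was at 0.53, 0.63 and 0.73 on the anti-CD3 arrays and at -0.66, -0.43 and -0.73 on the PBS arrays, a change of 1.24 (2.37-fold, SE 0.08, adjusted p = 4.57e-08). Xbp1 rose by 0.72 (SE 0.07, adjusted p = 9.76e-07) and Atf4, the transcription factor of the integrated stress response, by 0.57 (SE 0.07, adjusted p = 2.32e-05). The Xbp1 value covers the gene's RNA as a whole and does not separate the form spliced by the Ern1 product. The other 3 were not called. Ddit3, which encodes the pro-apoptotic factor CHOP, gave -0.12 (95% interval -0.28 to 0.04) and Ern1 -0.13 (-0.29 to 0.03). Trib3, a target of ATF4 and CHOP, gave -0.29 (-0.57 to -0.01). Ddit3 was among the genes of high signal. Ern1 and Trib3 were not, so for those genes a missing call says little.

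**Figure D2:**
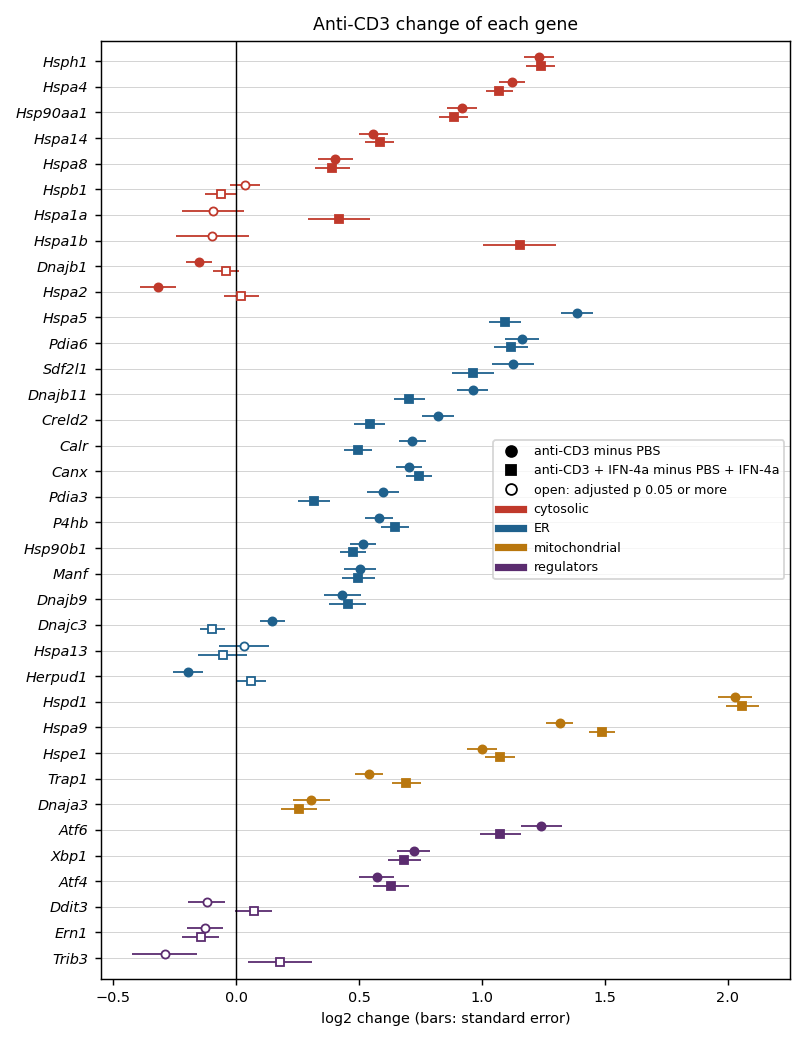
Log2 change of each of the 36 measured genes with anti-CD3, without IFN-4a (circles) and with it (squares), with bars of 1 standard error; open symbols are not called at an adjusted p under 0.05. Hspd1 lies farthest right in both comparisons (2.03 without and 2.06 with IFN-4a), and Hspa1b is the gene whose circle and square lie farthest apart (-0.10 and 1.15).

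Related genes that are not in the set of 40 were read from 6 further lists, 76 measured genes in all. These lists too were chosen with earlier results of these data known. Every one of the 8 subunits of the cytosolic chaperonin CCT, which folds actin and tubulin, rose with anti-CD3 alone, with a median of 0.86; Cct6a changed by 1.38, Cct3 by 1.22 and Cct8 by 1.08. Of 15 cytosolic cochaperones 11 rose and 0 fell by limma's test (also 0 at an unadjusted p under 0.05), with Stip1, which links Hsp70 to Hsp90, at 1.17, Chordc1 at 0.80 and Hspbp1 at 0.80. Of 15 other ER folding genes 8 rose and 3 fell: Hyou1, the large Hsp70 of the ER, changed by 1.32, Dnajc1 by 0.81 and the sulfhydryl oxidase gene Qsox1 by -0.80.

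The lists concerned with degradation and stress signalling held genes called either way. Over all genes 13.8% were higher and 18% lower. Among genes of high signal fitted alone the shares were 35.6% and 37.8%, and 10 of the 11 degradation genes were of high signal. Of 11 genes of ER-associated degradation 3 rose and 3 fell, with a median of 0.05; the ubiquitin ligase gene Syvn1 changed by 0.42, Os9 by -0.40 and Edem2 by -0.34. Of 16 further genes of the unfolded protein and integrated stress responses 6 rose and 2 fell, with a median of 0.10. Psat1, of serine synthesis, changed by 2.34 and Atf3, a stress-induced transcription factor, by 1.26, whereas Eif2ak3, the gene of the ER stress kinase PERK, changed by -1.19 (SE 0.08, adjusted p = 3.82e-08). Of 11 other mitochondrial folding genes and proteases 5 rose and 3 fell; Clpp changed by 0.62, Afg3l2 by 0.61 and Hscb by -0.59.

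**Figure D3:**
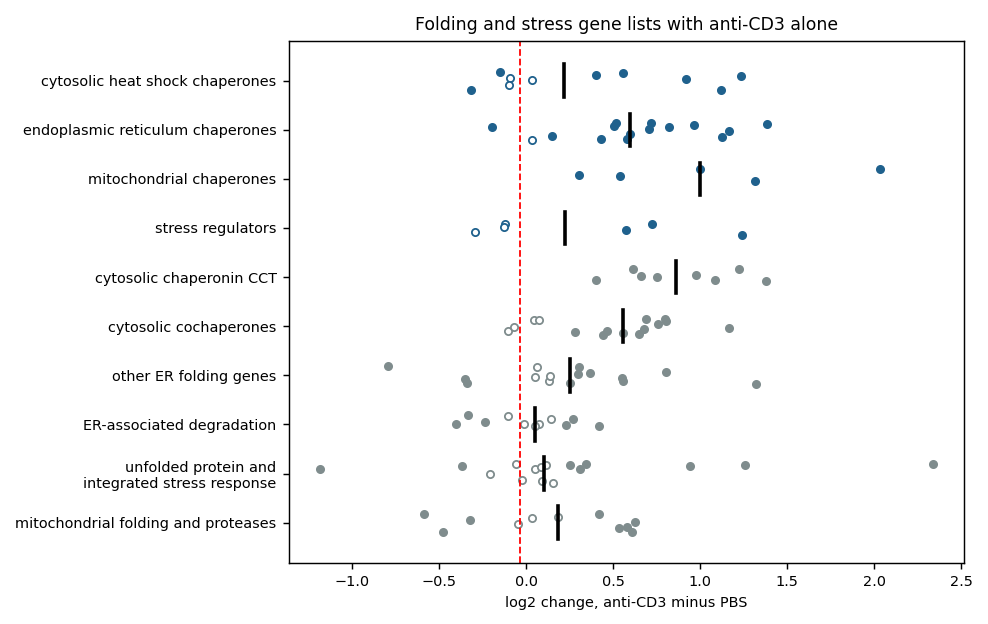
Log2 change with anti-CD3 alone of each measured gene (points; filled where called at an adjusted p under 0.05, spread vertically at random within a row) in the 4 compartments of the set (blue) and in 6 related lists (grey), with a black bar at each list's median and a dashed line at the median of all genes (-0.04). Mitochondrial chaperones (median 1.0) and CCT subunits (0.86) lie to the right, and genes of ER-associated degradation lie on both sides of 0 (median 0.05).

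Of 20 measured markers of other cell types 3 were called. Itgax (0.56) was higher and Cd79b (-0.69) and Elane (-0.24) were lower with anti-CD3 alone; the median of the 7 B cell markers ran from -0.10 to -0.04 on the anti-CD3 arrays and from -0.0046 to 0.07 on the PBS arrays, and that of the 6 myeloid markers from -0.09 to 0.03 and from -0.07 to 0.08. Their part in the chaperone changes was not tested. T cell markers shifted too: Cd5 changed by 1.18, Thy1 by -1.19, Cd3d by -0.64, Cd8b1 by -0.34 and Cd3g by -0.26.

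The second comparison set anti-CD3 against mock stimulation in the presence of IFN-4a. Its group means came from 6 arrays that gave no group mean of the first comparison. The variance of each gene was estimated over all arrays, so both comparisons share their error estimate. Their calls are therefore not independent. Of the 36 genes, 27 rose and 0 fell by limma's test (also 0 at an unadjusted p under 0.05), against a background of 12.8% of all genes called higher and 14.9% called lower (27.7% either way). Among genes of high signal fitted alone, 24 of the 28 were higher and 0 lower, against 33.7% and 37.2% of all such genes. The limit of that filter given above holds here too. Without the first array with both agents 1 gene was called lower. The median change was again 0.56, and 9 genes rose at least 2-fold. The genes higher in both comparisons numbered 25, which is 96.2% of the 26 higher without IFN-4a and 92.6% of the 27 higher with it. Over all genes tested 2441 were higher in both, which is 80.0% of the 3052 higher without IFN-4a and 86.2% of the 2833 higher with it. Dnajc3 was called without IFN-4a, where it rose little, and not with it, while Hspa1a and Hspa1b were called with it and not without. Of these 3 genes the difference between the comparisons was itself called for Hspa1b.

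All 5 mitochondrial chaperones were called higher in the presence of IFN-4a too, though Dnaja3 only as the mean of rows that differed in sign. Hspd1 was at 0.98, 1.02 and 0.95 with anti-CD3 plus IFN-4a and at -1.05, -0.96 and -1.22 with PBS plus IFN-4a, a change of 2.06 (4.17-fold, SE 0.07, adjusted p = 4.08e-11). Hspa9 changed by 1.49 (SE 0.05, adjusted p = 9.88e-11), Hspe1 by 1.08, Trap1 by 0.69 and Dnaja3 by 0.26 (adjusted p = 0.0194, and 0.283 with its row of highest mean alone). The 3 rows of Dnaja3 gave -0.14, 0.13 and 0.78, and its call was lost in 4 alternatives. The median of the 5 was 1.08.

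In the ER 12 of 15 rose and the median was 0.50. Pdia6 changed by 1.12 (SE 0.07, adjusted p = 2.09e-08), Hspa5 by 1.09 (SE 0.06, adjusted p = 1.18e-08), Sdf2l1 by 0.96 and Canx by 0.74. Dnajc3 (-0.10), Hspa13 (-0.06) and Herpud1 (0.06) were not called. Of the regulators the same 3 rose, Atf6 by 1.07, Xbp1 by 0.68 and Atf4 by 0.63, while Ddit3 (0.07), Ern1 (-0.15) and Trib3 (0.18) were not called.

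Cytosolic chaperones had a median of 0.50 in this comparison, with 7 of 10 higher. Hsph1 changed by 1.24 (SE 0.06, adjusted p = 1.8e-09), Hspa4 by 1.07 and Hsp90aa1 by 0.88. Hspa1b, not called with anti-CD3 alone, was at 1.18, 1.45 and 0.69 with anti-CD3 plus IFN-4a and at -0.25, -0.02 and 0.13 with PBS plus IFN-4a, a change of 1.15 (2.22-fold, SE 0.15, adjusted p = 2.79e-05). The 3 arrays with both agents were the highest of the 12 for this gene, with the third below the other two.

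In the presence of IFN-4a all 8 CCT subunits rose (median 0.97), 11 of 15 cochaperones (0.45), 6 of 15 other ER folding genes with 3 lower (0.19), 2 of 11 genes of ER-associated degradation with 3 lower (-0.03), 8 of 16 further stress response genes with 2 lower (0.20) and 6 of 11 mitochondrial folding genes and proteases with 2 lower (0.25). Over all genes 12.8% were higher and 14.9% lower, and among genes of high signal fitted alone 33.7% and 37.2%. Cct6a changed by 1.31, Hyou1 by 1.43, Psat1 by 2.25, Lonp1, a protease of the mitochondrial matrix, by 0.82, Hspbp1 by 0.98 and Eif2ak3 by -0.99. Of the 20 markers of other cell types, Itgax (0.41) was higher and Cd79a (-0.21) and Cd79b (-0.43) were lower, and their part in the result was not tested.

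The third comparison asked what IFN-4a does to these genes in PBS cells, which received no receptor stimulus. Changes were small, none reaching 2-fold. Of the 36 genes, 4 rose and 4 fell, against a background of 4.25% of all genes called higher and 8.37% lower (12.6% either way), and the median change was -0.05. Among genes of high signal fitted alone, 6 of the 28 were higher and 5 lower, against 10% and 26.2% of all such genes (36.2% either way), so the set was called about as often as other genes of high signal. The raised genes were the ER chaperone gene Hspa5 with its cofactor gene Dnajb11, and the cytosolic pair Hsph1 and Dnajb1. The lowered ones were Herpud1 and P4hb of the ER and Trap1 and Hspa9 of the mitochondrion.

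Hspa5 stood at -0.45, -0.38 and -0.52 with PBS plus IFN-4a and at -0.95, -0.86 and -1.0 with PBS alone, so the groups did not overlap. Its change was 0.49 (1.4-fold, SE 0.06, adjusted p = 0.000197), the largest of the 36 in this comparison. Hsph1 read -0.47, -0.41 and -0.42 with PBS plus IFN-4a and -0.83, -0.66 and -0.76 with PBS, a change of 0.32 (SE 0.06, adjusted p = 0.0035). Herpud1 read -0.07, -0.16 and -0.13 with PBS plus IFN-4a and 0.29, 0.16 and 0.23 with PBS, a change of -0.35 (SE 0.06, adjusted p = 0.00179). In all 3 genes each array with IFN-4a lay on one side of each array without it.

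Trap1 changed by -0.27 (SE 0.06, adjusted p = 0.0079) and was called under every alternative run. The calls of the other 4 were close to the threshold: Dnajb1 at 0.21 (adjusted p = 0.0177), Hspa9 at -0.21 (0.0192), Dnajb11 at 0.21 (0.0449) and P4hb at -0.19 (0.0488). Of 18 alternatives, P4hb was lost in 15, Dnajb11 in 10, Hspa9 in 4 and Dnajb1 in 3. The highest adjusted p was 0.0704 for Dnajb1 without the second PBS plus IFN-4a array, 0.0788 for Hspa9 without the second PBS array, 0.136 for Dnajb11 without the first PBS array and 0.138 for P4hb without the third PBS plus IFN-4a array. Without the second PBS plus IFN-4a array 4 genes were called, and without the first array of either group 5.

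The regulators gave no call with IFN-4a in PBS cells, 0 of 6 by limma's test, with 2 lower at an unadjusted p under 0.05: Xbp1 at -0.17 (95% interval -0.32 to -0.03) and Trib3 at -0.33 (-0.61 to -0.05). Hspa1b gave -0.03 (95% interval -0.35 to 0.29) and Hspa1a 0.07 (-0.20 to 0.34). Of the 76 related genes 2 rose and 12 fell, against 4.25% of all genes called higher and 8.37% lower. Among genes of high signal fitted alone these shares were 10% and 26.2%. The raised pair were the cochaperone genes Stip1 (0.42, SE 0.07, adjusted p = 0.000719) and Chordc1 (0.37), and the lowered ones included Cdc37 (-0.37), Cct4 (-0.30), Fkbp2 (-0.36), Eif2ak3 (-0.48), Ddit4 (-0.63) and Lonp1 (-0.28).

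The fourth comparison set anti-CD3 plus IFN-4a against anti-CD3 alone. Of the 36 genes 4 rose, all cytosolic, against a background of 2.02% of all genes called higher, and 0 fell by limma's test, against 1.46% called lower (3.48% either way). Among genes of high signal fitted alone, 3 of the 28 were higher and 4 lower, against 6.26% and 8.35% of all such genes. At an unadjusted p under 0.05 there were 6 of the 36 higher and 6 lower, without a count over all genes to set beside them. The median change of the 36 was -0.06.

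Hspa1b, one of the 2 genes of the inducible cytosolic Hsp70, was at 1.18, 1.45 and 0.69 on the arrays with anti-CD3 plus IFN-4a and at -0.19, -0.04 and -0.10 on those with anti-CD3 alone. The groups lay apart, and the change was 1.22 (2.33-fold, SE 0.15, adjusted p = 0.000159). Hspa1a was at 0.39, 0.31 and 0.50 with anti-CD3 plus IFN-4a and at 0.05, -0.43 and -0.16 with anti-CD3 alone, a change of 0.58 (1.5-fold, SE 0.13, adjusted p = 0.0207). The groups did not overlap here either, but the Hspa1a call was lost when the second or the third anti-CD3 array, or the first or the third array with both agents, was left out, with an adjusted p of up to 0.0992.

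Hspa1a and Hspa1b are near-identical neighbours on chromosome 17, with 10120 bases between their annotated spans, so their probes may cross-hybridise and the split of the signal between them is uncertain. Each was read from 1 row of its own, and each is also named on 1 row with several symbols, which was not read. Neither gene was among those of high signal. The 250 bases before their start sites are printed because they show how alike the genes are upstream of transcription: they are 98.8% identical. Capitals mark the 3 bases that differ, C44T, T47C and T249G, with the Hspa1a base first and positions counted from 1 at the 5′ end of the stretch. Neither stretch held the heat shock element as searched, which says only that this exact pattern of letters was absent from it. Looser matches were not searched.
Hspa1a, chr17:34972157-34972406, minus strand: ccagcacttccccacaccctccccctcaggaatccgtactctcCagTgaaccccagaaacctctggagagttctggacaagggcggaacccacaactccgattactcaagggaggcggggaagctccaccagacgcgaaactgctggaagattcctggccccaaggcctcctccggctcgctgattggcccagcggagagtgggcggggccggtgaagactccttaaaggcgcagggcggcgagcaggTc
Hspa1b, chr17:34959239-34959488, minus strand: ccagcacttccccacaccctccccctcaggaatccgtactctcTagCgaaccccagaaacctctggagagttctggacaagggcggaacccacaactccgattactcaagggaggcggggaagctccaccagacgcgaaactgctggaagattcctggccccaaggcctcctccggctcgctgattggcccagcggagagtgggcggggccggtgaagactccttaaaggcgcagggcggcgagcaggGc

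Dnajb1, the J-domain partner of this Hsp70, was at 0.05, 0.08 and 0.14 with anti-CD3 plus IFN-4a and at -0.26, -0.18 and -0.28 with anti-CD3 alone, a change of 0.33 (SE 0.05, adjusted p = 0.00252). Hsph1 was at 0.76, 0.87 and 0.79 against 0.50, 0.55 and 0.41, a change of 0.32 (SE 0.06, adjusted p = 0.0074). In both genes all arrays with IFN-4a were above all arrays without it. Dnajb1 and Hsph1 were thus the 2 genes called higher with IFN-4a in PBS cells and in anti-CD3 cells, with Dnajb1 the less firm in PBS cells. In neither state were 26 of the 36 called with IFN-4a (72.2%), against 86.6% of all genes tested.

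The ER, mitochondrial and regulator genes gave 0 calls in either direction with IFN-4a in anti-CD3 cells by limma's test. In the ER 14 of 15 changes had a negative sign and the median was -0.10. Over all 22180 genes 11304 changes were negative, and the median of the genes of high signal was -0.05. Hspa5 at 0.20 (adjusted p = 0.137) was the exception, and Sdf2l1 at -0.28 (adjusted p = 0.113) was the lowest; 1 was higher and 4 were lower at an unadjusted p under 0.05. Among them were Creld2 at -0.23 (adjusted p = 0.0711) and Dnajc3 at -0.19 (adjusted p = 0.0708). The mitochondrial genes lay between -0.12 and -0.03. Xbp1 gave -0.21 (adjusted p = 0.118) and Atf6 -0.19 (adjusted p = 0.287). With weights for array quality, 4 of the 36 were called lower, namely Dnajc3, Sdf2l1, Creld2 and Xbp1. The weighted fit called 752 of all 22180 genes lower, against 324 in the main fit. Of the 76 related genes 0 were called in either direction, with 6 higher and 10 lower at an unadjusted p under 0.05.

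**Figure D4:**
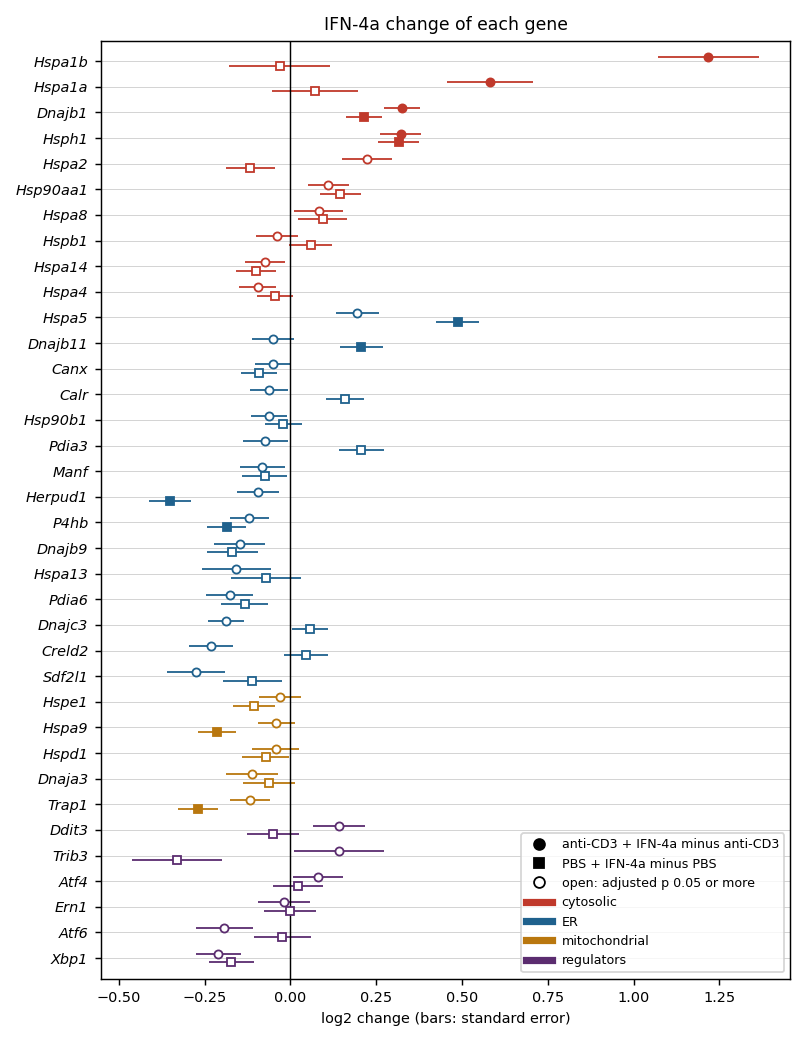
Log2 change of each of the 36 measured genes with IFN-4a, in anti-CD3 cells (circles) and in PBS cells (squares), with bars of 1 standard error; open symbols are not called at an adjusted p under 0.05. Hspa1b (1.22 in anti-CD3 cells, -0.03 in PBS cells) stands apart, and Hspa5 is highest in PBS cells (0.49).

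The last comparison tested whether the IFN-4a change differed between the states, as the change in anti-CD3 cells minus that in PBS cells. This difference is the same quantity as the anti-CD3 change with IFN-4a minus that without. Of the 36 genes 1 was called higher, Hspa1b, and 0 lower, against a background of 0.298% of all genes called higher and 0.645% lower (0.942% either way). At an unadjusted p under 0.05 there were 6 higher and 6 lower. The difference for Hspa1b was 1.25 (95% interval 0.80 to 1.70, SE 0.21, adjusted p = 0.00832), and it was called in each of the 16 alternatives in which it was tested, with adjusted p from 0.000174 to 0.0303.

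For Hspa1a the difference was 0.51 (95% interval 0.13 to 0.89, adjusted p = 0.28), which was not called and whose interval overlaps that of Hspa1b. The 6 lower ones at an unadjusted p under 0.05 were all ER chaperone genes: Hspa5 at -0.29 (adjusted p = 0.209), Pdia3 at -0.28 (0.246), Creld2 at -0.28 (0.24), Dnajb11 at -0.26 (0.271), Dnajc3 at -0.24 (0.19) and Calr at -0.22 (0.289). None passed the adjustment, so a smaller anti-CD3 increase of these genes in the presence of IFN-4a was not established. The share of all genes at an unadjusted p under 0.05 was not counted, so the unadjusted counts have no background here. Herpud1 gave 0.26 (adjusted p = 0.264), Trib3 0.47 (0.355) and Hspa2 0.34 (0.192). Of the 76 related genes 0 were called by limma's test, with 11 higher and 4 lower at an unadjusted p under 0.05.

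**Figure D5:**
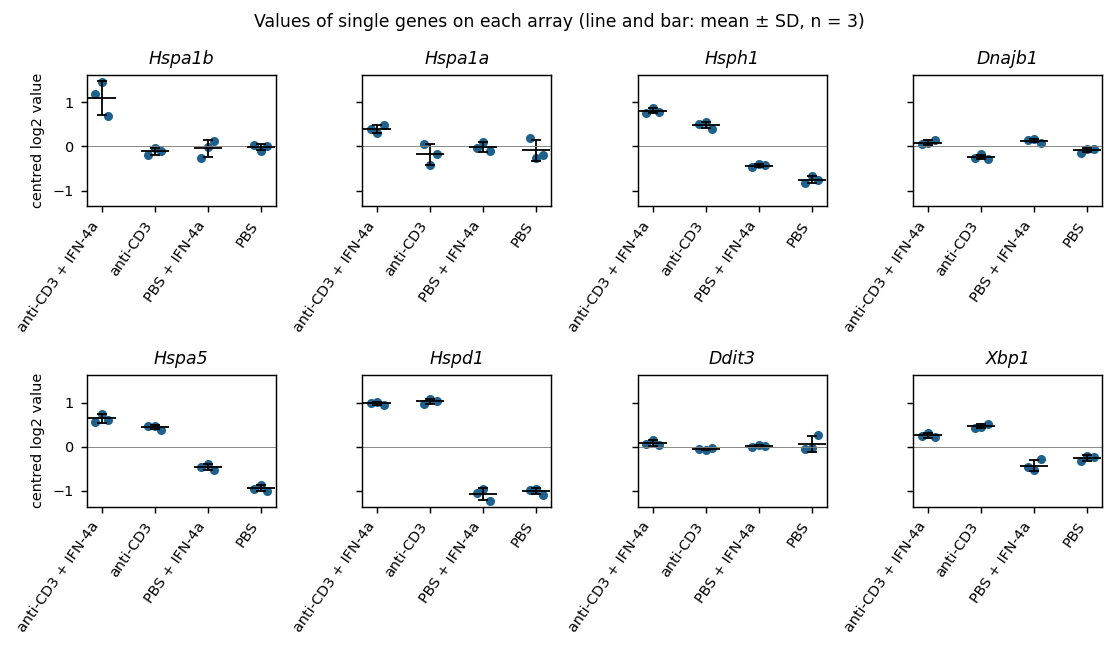
Centred log2 values of 8 genes on each array (points; lines and bars mark the mean and SD of the 3 arrays), with the groups from left to right anti-CD3 plus IFN-4a, anti-CD3, PBS plus IFN-4a and PBS. Hspd1 and Hspa5 are high in both anti-CD3 groups, and Hspa1b is high in the group that received both agents, where its arrays run from 0.69 to 1.45.

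The compartments differed in the array medians of their genes, with some overlap. The median of the mitochondrial genes ran from 0.40 to 0.58 with anti-CD3 plus IFN-4a, from 0.49 to 0.61 with anti-CD3, from -0.58 to -0.53 with PBS plus IFN-4a and from -0.49 to -0.40 with PBS. The median of the ER genes ran from 0.20 to 0.23, from 0.28 to 0.35, from -0.36 to -0.24 and from -0.34 to -0.27 in the same groups. That of the cytosolic genes ran from 0.30 to 0.35 with anti-CD3 plus IFN-4a, above all 3 arrays with anti-CD3 alone at 0.04 to 0.14, and lay from -0.21 to -0.12 with PBS plus IFN-4a and from -0.24 to -0.17 with PBS. That of the 6 regulators ran from 0.13 to 0.23, from 0.07 to 0.19, from -0.30 to -0.10 and from -0.15 to -0.10 in the same groups, a range that overlapped that of the ER genes with anti-CD3 plus IFN-4a, that of the cytosolic genes with anti-CD3, and both with PBS plus IFN-4a. As descriptions of 10, 15, 5 and 6 genes these medians carry no test of their own.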

How the data were processed

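The authors deposited one table of 33793 rows for 12 single-channel arrays. Per the labels' protocols, total RNA from CD8+ cells enriched with a CD8a+ T Cell Isolation Kit was extracted with an RNeasy kit, and biotin labelling of 100 ng followed a WT Plus protocol. The deposited values, taken as log2, run from -4.55 to 3.31 and were centred by the authors on each row's median (largest absolute row median 5e-07). The sources used here name no log base: base 10 cannot give rows at 8 or above, but a natural log is possible and would make every fold larger. They name no normalization or software either, and centred values hold no signal over background.

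The probe annotation gave 1 symbol to 23521 rows, several to 1814 and none to 8458. Rows of 1 gene were averaged (1082 genes). In R 4.3.3, limma 3.58.1 fitted a mean per group over all 12 arrays (8 residual and 5.18 prior degrees of freedom) with 5 contrasts, two-sided tests and Benjamini-Hochberg adjustment over 22180 genes. The fit was tested on simulated data. Motifs were searched in RefSeq promoter windows.

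The genes and lists were chosen with earlier results of these data known. Named were, per comparison and compartment, up to 4 genes with the largest absolute change plus those called in a single comparison, and up to 3 called genes of each related list; further members are given by value so that all are accounted for. Alternatives were the row of highest mean per gene, quantile normalization, bright genes alone (a row at 8 or above on at least 6 arrays), array weights, the 2 groups alone, a replicate block and each array left out. The first 2 used the row-centred values. The mean of a centred row does not rank rows by level, so the row of highest mean need not be the brightest.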

Additional observations from a re-analysis of the deposited data

Results flagged for a closer look

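The IFN-4a change differed between anti-CD3 cells and PBS cells, by the test of the difference itself in limma, for 1 gene of the set. Hspa1b differed by 1.25 on the log2 scale (SE 0.21, adjusted p = 0.00832): with IFN-4a it was higher on 3 of 3 arrays in anti-CD3 cells and overlapped in PBS cells. Hspa1b shares near-identical sequence with Hspa1a, whose difference of 0.51 was not called (adjusted p = 0.28). Hspa1b was read from 1 row, which was not among those of high signal.

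Among the 4 genes used to check the treatments, the difference was called for Ifit1 at -1.28 (adjusted p = 8.66e-06), for Cd69, an early activation marker, at -0.85 (adjusted p = 0.00507) and for Il2ra at -0.97 (adjusted p = 0.0213). It was not called for Isg15 at -0.23 (adjusted p = 0.704). These 3 differences were negative, but none was called after quantile normalization, which gave -0.31 for Ifit1 (adjusted p = 0.431), -0.44 for Cd69 (adjusted p = 0.0932) and -0.30 for Il2ra (adjusted p = 0.662), with Isg15 at 0.37 (adjusted p = 0.323). The difference for Hspa1b was then 1.1 (adjusted p = 0.0128). Quantile normalization was run on values already centred per row. It gave all arrays the same distribution of deviations from the row medians, so it is not an ordinary normalization of signal levels. Anti-CD3 alone was itself called higher for Ifit1 (0.91) and Isg15 (0.56), and both signs turned after quantile normalization (-0.22 and -0.36).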

How the results depend on the processing

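With IFN-4a in PBS cells 8 genes of the set were called (4 higher, 4 lower), 5 after quantile normalization, of which 2 lower, and 11 among bright genes alone (6 higher, 5 lower, of 28); leaving out single arrays gave 4 to 8 (2 to 5 higher, 2 to 4 lower). With IFN-4a in anti-CD3 cells 4 were called (4 higher, 0 lower); array weights gave 9 with 4 lower, bright genes alone 7 of 28 with 4 lower (14.6% of all bright genes, 8.35% lower), quantile normalization 1 lower, and single arrays left out 3 to 4 (3 to 4 higher, 0 to 0 lower). Anti-CD3 without IFN-4a gave 26 to 29 over single arrays left out (25 to 26 higher, 1 to 3 lower), anti-CD3 with IFN-4a 25 to 27 (25 to 27 higher, 0 to 1 lower) and the difference between states 1 to 1 (1 to 1 higher, 0 to 0 lower). Among bright genes alone that difference gave 0 calls, 0 higher, because Hspa1b is not among them. After quantile normalization of the row-centred values the change with anti-CD3 alone was -0.22 for Ifit1 and -0.36 for Isg15, against 0.91 and 0.56. The cause of this change of sign was not tested. Over all genes, calls with IFN-4a in anti-CD3 cells numbered 771, and 1402 with array weights; calls of the difference numbered 209, and 116 after quantile normalization, 381 among bright genes and 137 without the second PBS plus IFN-4a array. Calls with IFN-4a in PBS cells numbered 2798, and 1753 without that array. The labels do not say that a replicate number marks a shared source, and 6 of 18 same-numbered pairs had a correlation of deviations over 0.1 (-0.07 to 0.27, median 0.07, against -0.04 for pairs of different number), so the numbers were not taken as pairs, although 9 of 12 arrays correlated best with their own number, a hint from the data and not the design; with a replicate block 7 genes of the set were called with IFN-4a in PBS cells, 4 with IFN-4a in anti-CD3 cells, 27 with anti-CD3 in either setting and 1 for the difference. With 3 arrays a group and no level left after centring, the smallest called change over all genes was 2.77 SE with anti-CD3 alone, 2.84 with anti-CD3 in the presence of IFN-4a, 3.24 with IFN-4a in PBS cells, 3.91 with IFN-4a in anti-CD3 cells and 4.62 for the difference; smaller ones could not be told from 0.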
